A study of Ovis aries with 32 samples.

Results

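Visceral and epicardial fat of control sheep were compared within the same animals. The libraries were chosen by their labels (depot and control treatment), which gave 8 of the 32 libraries of the series: 4 sheep, numbered 98, 131, 132 and 201, each with 1 visceral and 1 epicardial library. The study sequenced the 3′ ends of mRNA from 4 fat depots of 8 female sheep to ask how testosterone before birth acts on adult fat. Visceral fat was mesenteric fat taken beside the rumen, and epicardial fat lay between the heart muscle and the serous membrane that covers it. The control ewes are described only as controls. Mothers of the other 4 sheep (48, 185, 233 and 255) received repeated intramuscular injections of 100 mg testosterone propionate, equal to 1.2 mg per kg, from day 30 to day 90 of gestation. Every sheep of both groups shared the same housing, a maintenance diet and removal of the ovaries after the second breeding season. All then carried an estradiol implant, progesterone implants for 14 days and, for the last 18 hours, 4 larger estradiol implants, so that each fat sample came from an ovariectomised animal under estradiol. No more precise age was given.

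Fat depots arise from different parts of the embryonic mesoderm, and adult fat cells and their stroma keep a record of position in transcription factors such as the HOX genes, which pattern the body from neck to tail. Mesenteric fat hangs in the abdomen, drains into the portal vein and stores triglyceride. Epicardial fat shares its blood supply with the heart muscle, lies against it without a dividing fascia, and develops beside the epicardium, a layer made under factors such as WT1, TCF21 and TBX18.

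Library totals were 6093513 to 7980969 counts in visceral and 2907037 to 5475892 in epicardial fat, so the epicardial libraries were shallower in every sheep. Values are CPM, counts scaled to a fixed library total and corrected for library composition. A gene with no count in any of 4 libraries could still stand at up to 0.111 CPM in visceral or 0.157 CPM in epicardial fat, which is 3 counts over the group and covers counting error only. Fold bounds below ("at least") set the level of the other depot, pooled over its 4 libraries, against this floor. The fat cell genes FABP4 and ADIPOQ were among the most abundant transcripts of all 8 libraries. In bulk tissue, fewer cells of a type and less RNA per cell cannot be told apart. Below, values of single sheep stand in the order 98, 131, 132, 201, and log2 fold changes are epicardial minus visceral from edgeR with the sheep as a block.

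Heart muscle RNA was present in the epicardial libraries in very different amounts and was set apart first. The summed level of 39 heart muscle genes was 40187 CPM in sheep 98, 6676 in 131, 223 in 132 and 1610 in 201. The same sum was 81.3 to 158 CPM in visceral fat, so that even the lowest epicardial library stood above every visceral one. Titin (TTN), the spring protein of the sarcomere, was at 9251, 789, 3.79 and 428 CPM in epicardial and 14.6, 2.9, 1.96 and 3.06 CPM in visceral fat. Its log2 fold change of 7.49 (SE 1.74) did not pass (edgeR adjusted p = 0.0647). Only sheep 132 lay near the visceral range. The calcium pump regulator phospholamban (PLN) was at 6033, 802, 119 and 244 CPM in epicardial and 31.98, 40.1, 36.5 and 37.6 in visceral fat, at 3.89 (SE 1.31, adjusted p = 0.137). The stress-responsive repeat protein ANKRD1 was at 3198, 775, 0.861 and 150.5 CPM in epicardial against 31.6, 8.06, 2.22 and 15.1 CPM in visceral fat, lower in epicardial than in visceral fat in sheep 132 and higher in the other 3 sheep.

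**Figure D1:**
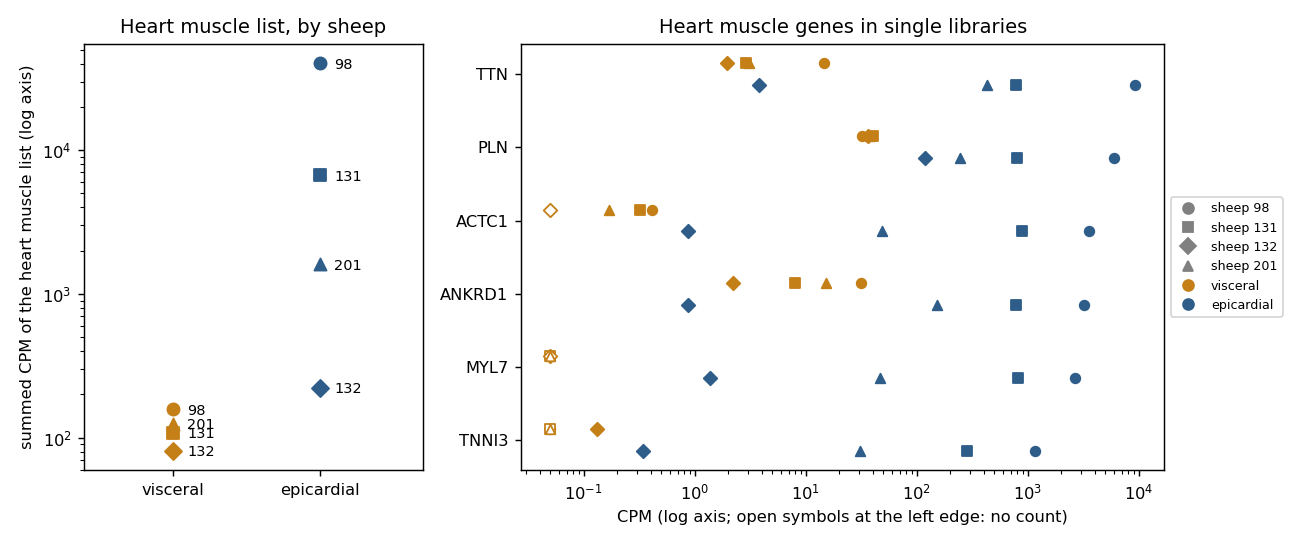
Left, the summed CPM of 39 heart muscle genes in each library of the 4 control sheep on a log axis; right, CPM of 6 heart muscle genes in single libraries, symbols giving the sheep and colours the depot. The epicardial library of sheep 98 is the highest and that of sheep 132 the lowest of the epicardial libraries for the sum and for all 6 genes.

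The cardiac actin ACTC1 (3572, 878, 0.861 and 48.6 CPM), the atrial myosin light chain MYL7 (2669, 813, 1.38 and 46.6 CPM) and cardiac troponin I (TNNI3, 1154, 284, 0.344 and 30.9 CPM) followed the same order of sheep in epicardial fat. In visceral fat ACTC1 and TNNI3 were at most 0.41 and 0.13 CPM and MYL7 had no count, which makes its pooled epicardial level at least 6056-fold higher. These 3 genes failed the filter on low counts and were not tested. CASQ2, the calcium store protein of the sarcoplasmic reticulum, had no count in visceral fat and 620.3, 88.7, 2.24 and 19.4 CPM in epicardial fat, at least 1173-fold higher. It passed with the sheep block (edgeR adjusted p = 1.65e-05) and not without it (0.148). Of 14 heart muscle genes tested, 6 passed, all higher in epicardial fat. Without sheep 132, 22 of 33 tested passed, and without sheep 131, 2 of 14. The DESeq2 Wald test with the sheep block passed 13 of 14 and the fit of all 16 control libraries 15 of 16, TTN and PLN among them in both.

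Genes that rose and fell with this muscle RNA were kept in a class of their own. It holds the heart list and every gene whose log2(CPM + 1) followed the summed heart list over the 8 epicardial libraries of both treatments (Pearson r of at least 0.8) over a span of at least 2 on the log2 scale. The class holds 464 genes, of which 262 were tested and 69 passed (26.3%), 67 higher and 2 lower in epicardial fat. Its members outside the heart list include regulators and nerve sheath genes named below, so membership describes a course over libraries and not a cell of origin.

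Over all 12870 genes tested, 2539 passed an adjusted p of 0.05 (edgeR), which is 19.7%. Of these, 1246 (9.68%) were higher in epicardial and 1293 (10%) higher in visceral fat, with a median log2 fold change over all tested genes of 0.02. Counts of passing members on the gene lists below are to be read beside these shares. A change of at least 2-fold was seen for 648 genes higher in epicardial and 417 higher in visceral fat. In 2689 genes (20.9%) the 4 epicardial and 4 visceral libraries did not overlap, with epicardial fat above in 10.1% and visceral fat above in 10.8% of all tested genes. With the muscle-following genes set apart, 2470 of 12608 (19.6%) passed, 1179 (9.35%) higher in epicardial and 1291 (10.2%) higher in visceral fat. The count over all genes was 1360 without sheep 131, 1664 without 132 and 1635 without 201, and 2430 without 98, the sheep with the most muscle RNA.

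**Figure D2:**
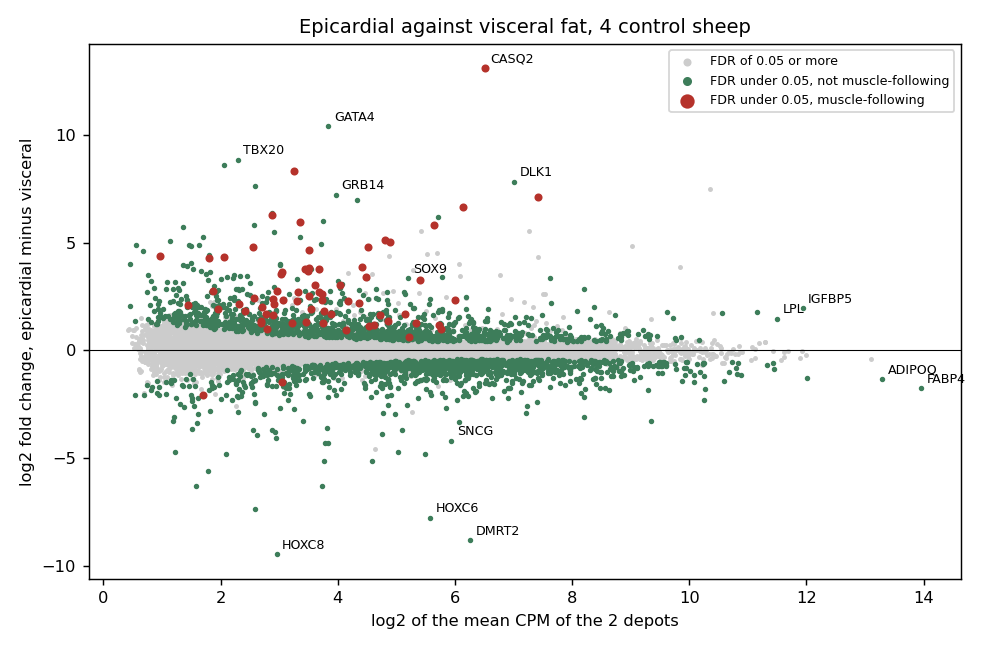
Each point is 1 of 12870 tested genes, with the log2 of its mean CPM over both depots on the x axis and its log2 fold change, epicardial minus visceral, on the y axis. Passing genes that follow the heart muscle sum (red) lie almost all above 0, whereas the other passing genes (green) spread to both sides; the fitted values of GATA4, TBX20, CASQ2 and HOXC8, each without a count in 1 depot, are not bounds.

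The HOX genes that could be tested were all lower in epicardial fat, and only HOXD3 did not pass (-1.24, edgeR adjusted p = 0.0746). Of 37 annotated HOX genes, 10 had no count in any of the 8 libraries and 19 were tested, of which 18 passed as higher in visceral fat (94.7%), with a median log2 fold change of -2.94 against 0.02 over all genes. HOXC6, a trunk HOX gene, was at 92.5, 95.5, 94.95 and 97.3 CPM in visceral fat. In epicardial fat it was at 0.327, 0.916, 0 and 0.417 CPM, below 1 CPM in all 4 sheep. edgeR put the log2 fold change at -7.77 with SE 0.36 (adjusted p = 1.19e-05). HOXC8 was at 16.9, 13.7, 14.3 and 17.2 CPM in visceral fat and had no count in 4 epicardial libraries, which makes it at least 98.9-fold lower there (adjusted p = 0.000177). HOXB5, at 12.03, 11.3, 14.1 and 10.7 CPM in visceral fat, had counts in 1 of 4 epicardial libraries (0.183 CPM in sheep 131), and HOXC9, at 4.78, 5.97, 3.0 and 10.04 CPM, also in 1 (0.172 CPM in sheep 132). HOXA7 (16.4, 26.4, 29.6 and 32.5 CPM in visceral and 0.982, 0, 0 and 0.626 in epicardial fat), HOXB6 (32.5, 21.6, 21.4 and 30.6 against 0.982, 0, 1.38 and 0.626) and HOXB7 (29.9, 24.03, 26.2 and 28.2 against 0.982, 0.916, 1.72 and 1.67) did not overlap between depots either. Their log2 fold changes were -6.29, -5.12 and -4.30, and the rule that named them required no overlap.

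Members from other positions in the clusters passed as well, with log2 fold changes of -2.70 for HOXB2, -3.38 for HOXB8 and -1.59 for HOXD8. HOXA9, a more posterior member, was near 0 in both depots (0.137, 0, 0.261 and 0 CPM in visceral and 0.327, 0.55, 0.344 and 0.417 in epicardial fat), while control subcutaneous and perirenal fat held 46.02 and 42.99 CPM on average. HOXC10 had no count in either depot and 9.51 CPM in perirenal fat. For HOXC6 the other 2 depots stood above visceral fat, at 211 and 215 CPM. The order of the 4 depots for this gene, from the lowest, was therefore epicardial, visceral, and then subcutaneous and perirenal close together. The HOX cofactor MEIS1 was also lower, at 16.03, 13.9, 13.1 and 13.99 CPM in epicardial against 48.7, 44.5, 44.9 and 41.9 CPM in visceral fat, a log2 fold change of -1.66 (SE 0.15, edgeR adjusted p = 0.000157).

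Regulators of the heart field and epicardium went the other way. Of 13 tested, 10 passed as higher in epicardial and 0 as higher in visceral fat, with a median of 2.39, and 9 to 12 passed as higher under every alternative that was tried. Members higher in visceral fat numbered 2 of 18 with no filter on low counts, 1 of 14 with all 16 control libraries and 0 under the other alternatives. TBX3, a T-box factor of limb and heart conduction tissue, was lower in epicardial fat in each of the 4 sheep and did not pass, at 59.5, 52.6, 41.5 and 73.3 against 75.6, 128, 48.5 and 89.99 CPM (-0.54, SE 0.19, edgeR adjusted p = 0.0711). ISL1, a factor of the second heart field, was too low to test, at 0.327, 0, 0 and 0.417 CPM in epicardial and 3.69, 3.23, 0.913 and 1.02 CPM in visceral fat, with visceral fat above and no overlap. GATA4, a zinc finger factor needed for heart and epicardial development, was at 40.6, 26.2, 29.1 and 18.8 CPM in epicardial fat and had no count in any visceral library. It was at least 248-fold higher (edgeR adjusted p = 6.3e-05), and subcutaneous and perirenal control libraries also had no count. TBX20, a T-box factor of the heart, was at 14.7, 11.7, 8.1 and 4.8 CPM with no count in visceral fat, at least 84.5-fold higher (adjusted p = 0.000328). Both genes were detected in sheep 132, the epicardial library nearest to visceral fat in muscle RNA, at 29.1 and 8.1 CPM. Neither was in the muscle-following class, with r of 0.723 and 0.679 to the heart sum over 8 epicardial libraries.

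SOX9, a regulator of cartilage and of heart valve progenitors, was at 55.3, 65.4, 62.4 and 84.3 CPM in epicardial and 3.42, 8.38, 5.61 and 9.87 CPM in visceral fat. All 4 epicardial libraries lay above all visceral ones, at a log2 fold change of 3.35 (SE 0.20, edgeR adjusted p = 1.65e-05). TCF21, which marks epicardial progenitors and many fibroblasts, was at 57.3, 88.3, 84.4 and 91.9 CPM in epicardial against 17.5, 11.3, 15.9 and 16.5 CPM in visceral fat (2.39, SE 0.20), and was lowest in the muscle-rich library of sheep 98. TBX18, at 140.4, 139, 141 and 118 CPM in epicardial against 64.8, 41.9, 46.2 and 56.8 CPM in visceral fat, had a log2 fold change of 1.38 (SE 0.16). In the muscle-following class were GATA6 (133, 74.01, 34.3 and 68.7 CPM in epicardial fat), HAND2 (28.1, 13.6, 11.02 and 17.1) and TBX5 (55.95, 16.3, 9.13 and 9.6), whose visceral levels were at most 9.68, 4.51 and 4.76 CPM. Each was highest in sheep 98 and lay above the visceral range in sheep 132 as well. Their passing log2 fold changes were 3.28, 2.71 and 2.69. WT1, the classical factor of the epicardium and of mesothelium, was lower in epicardial fat, at 55.6, 56.8, 74.2 and 63.3 against 153, 87.9, 80.3 and 114 CPM (-0.75, adjusted p = 0.0286), but this call was lost without sheep 131 (adjusted p = 0.0892) and without 201 (0.111). NKX2-5 was at 10.5, 2.02, 0 and 0.417 CPM in epicardial fat, had no count in visceral fat and was not tested.

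**Figure D3:**
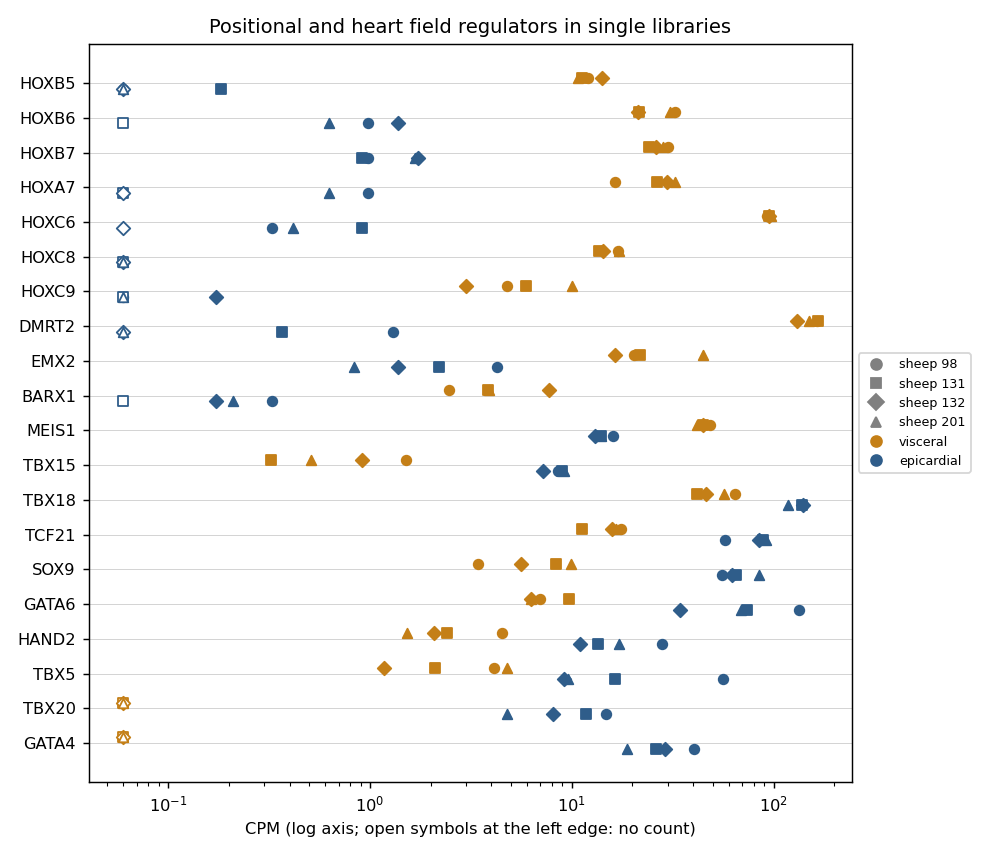
CPM of 20 positional and heart field regulators in single libraries on a log axis, with symbols for the sheep and colours for the depot; open symbols at the left edge mark libraries with no count. The HOX genes, DMRT2, EMX2, BARX1 and MEIS1 lie higher in visceral fat, and the genes from TBX15 downward lie higher in epicardial fat. None of the 20 overlaps, but the rule that named many of them required this. Over all tested genes 20.9% did not overlap.

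Other regulators of gut, limb and trunk were split, with 5 of 16 tested higher in epicardial and 6 higher in visceral fat (3 and 4 without sheep 131). Over all genes 9.68% and 10% passed. DMRT2, a doublesex-related factor of the somites, was at 164, 165, 131 and 150 CPM in visceral fat and 1.31, 0.366, 0 and 0 CPM in epicardial fat. Its log2 fold change of -8.80 (SE 0.44, edgeR adjusted p = 3.86e-05) was larger than that of HOXC6, and perirenal fat held 119 CPM. EMX2, a homeobox factor of the urogenital system and brain, was at 20.4, 21.8, 16.4 and 44.9 CPM in visceral against 4.25, 2.2, 1.38 and 0.835 CPM in epicardial fat, and lower in epicardial fat (-3.58, SE 0.45). BARX1, a factor of stomach mesenchyme, was at 2.46, 3.87, 7.7 and 3.91 CPM beside the rumen. It was at most 0.327 CPM in epicardial fat (-4.70, SE 0.60) and at 0.524 and 0.726 CPM in subcutaneous and perirenal fat. TBX15, a T-box factor of skin, limb and some fat depots, was higher in epicardial fat, at 8.51, 8.98, 7.23 and 9.19 against 1.5, 0.323, 0.913 and 0.51 CPM (3.37, SE 0.41).

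Some of the largest differences were in an imprinted growth gene and an insulin receptor adaptor. DLK1, a membrane and secreted factor that holds back fat cell differentiation, was at 122, 150.4, 409 and 345 CPM in epicardial libraries. Visceral fat held 0.273, 0.161, 4.04 and 0.51 CPM, so the lowest epicardial library stood far above the highest visceral one. This is a log2 fold change of 7.82 with SE 0.45 (edgeR adjusted p = 0.000153). Within epicardial fat DLK1 was higher in the 2 libraries with the least muscle RNA, those of sheep 132 and 201. The noncoding RNA GTL2, from the same imprinted domain, was higher as well, at 1987, 1657, 3246 and 2391 against 1077, 414, 635 and 694 CPM (1.76, SE 0.23). GRB14, an adaptor that binds and restrains the insulin receptor, was at 21.6, 40.3, 37.4 and 24.8 CPM in epicardial and at most 0.51 CPM in visceral fat (7.22, SE 0.41, adjusted p = 1.65e-05). The related adaptor GRB10 was lower in epicardial fat, at 94.5, 80.97, 68.04 and 74.1 against 149, 150.3, 168 and 204 CPM (-1.08, SE 0.16). The insulin receptor gene INSR itself was at 166, 193, 189 and 205 CPM in epicardial against 164, 196, 203 and 199.5 CPM in visceral fat. Its log2 fold change was -0.016 with a 95% interval of -0.30 to 0.26 (adjusted p = 0.941).

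Over the growth factor and insulin list, 7 of 16 tested genes were higher in epicardial and 5 higher in visceral fat (5 and 3 without sheep 201). The shares over all genes were 9.68% and 10%. IGFBP5, which binds insulin-like growth factors, was the most abundant gene among those at least 2-fold higher in epicardial fat, at 5550, 6957, 4854 and 7376 against 2289, 1728, 927 and 1681 CPM (1.95, SE 0.20, edgeR adjusted p = 0.00023). IGFBP3, the main carrier of these factors in blood, was at 67.1, 31.3, 62.9 and 62.2 CPM in epicardial and 721, 325, 904 and 192 CPM in visceral fat, and no library overlapped (-3.09, SE 0.39). With the 2 sheep of lowest muscle RNA alone, the log2 fold change of IGFBP3 was -2.75 and did not pass (adjusted p = 0.197). The imprinted cell cycle inhibitor CDKN1C was lower in epicardial fat, at 727, 1601, 1141 and 1263 against 1805, 3352, 2383 and 2778 CPM (-1.14, SE 0.14). The imprinted factor PEG3 was higher, at 141, 183, 335 and 224 against 58.1, 40.3, 94.3 and 113 CPM (1.57, SE 0.20). IGF1 (0.69) passed with a small difference and was lost without sheep 131 (adjusted p = 0.0724), 132 (0.0636) or 201 (0.0639).

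Among other genes without overlap, higher in epicardial fat by more than 5 on the log2 scale, were CAPN6, a calpain-like protein without protease activity (29.4, 15.9, 70.3 and 44.9 CPM in epicardial and at most 1.04 CPM in visceral fat), and the forkhead factor FOXP2 (18.6, 14.1, 3.44 and 10.7 and at most 0.34). KERA, keratocan, a small proteoglycan best known from the cornea, was at 116, 169, 90.6 and 38.4 CPM in epicardial against 0.957, 1.29, 3.0 and 0.17 CPM in visceral fat. KRT13, a keratin of stratified epithelium, was at 26.5, 20.7, 3.62 and 7.31 CPM in epicardial fat. Like FOXP2, it had the sheep order of the heart muscle sum. UNC13C, a presynaptic protein, was at 53.98, 19.8, 17.2 and 14.8 CPM and the glutamate receptor subunit GRIA1 at 6.87, 2.02, 6.89 and 4.38 CPM, beside at most 0.806 and 0.161 CPM in visceral fat. BEX5 was at 31.7, 21.6, 2.07 and 4.17 CPM, with its lowest values in the 2 libraries of least muscle RNA. Log2 fold changes ran from 5.49 for BEX5 to 6.99 for CAPN6.

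Higher in visceral fat beside the HOX genes were the oxytocin receptor OXTR (11.2, 4.03, 2.22 and 9.87 CPM in visceral and at most 0.366 CPM in epicardial fat; -5.57, SE 0.69), the ubiquitin ligase subunit FBXO2 (83.7, 62.7, 125 and 74.3 against 2.29, 4.4, 2.24 and 2.92; -4.80, SE 0.30) and gamma-synuclein, SNCG (106, 171, 87.0 and 102 against 7.2, 6.59, 3.1 and 9.39; -4.18, SE 0.24), which fat cells and sensory neurons express. None of these overlapped between depots, which the rule that named them required. KRT23, a keratin, was at 5.06, 5.0, 19.4 and 3.57 CPM in visceral fat, where sheep 132 stood apart, and had counts in 1 epicardial library (-4.79); this call was lost without sheep 131 (adjusted p = 0.066). FHL1, a LIM domain protein, was at 2015, 2398, 2603 and 2667 CPM in visceral against 765, 1228, 1508 and 1211 CPM in epicardial fat (-1.07, SE 0.15).

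Fat cell genes were lower in epicardial fat for some of the most abundant transcripts and not for others. Of 16 tested on the adipocyte list, 7 passed as higher in visceral and 2 as higher in epicardial fat, with a median of -0.56. Of all genes, 10% passed as higher in visceral and 9.68% as higher in epicardial fat. FABP4, the fatty acid binding protein of fat cells, was at 20180, 21430, 29740 and 24360 CPM in visceral fat and 2797, 9109, 9704 and 9668 CPM in epicardial fat. No library overlapped, and the epicardial library of sheep 98, with the most muscle RNA, stood well below the other 3. Over 4 sheep the difference was -1.75 on the log2 scale with SE 0.27 (edgeR adjusted p = 0.00371) and -1.47 without the 2 most muscle-rich sheep. Adiponectin (ADIPOQ), an insulin-sensitising hormone of fat, was at 8865, 13330, 19710 and 15190 CPM in visceral and 3447, 7982, 6129 and 5653 CPM in epicardial fat, also without overlap (-1.30, SE 0.18, adjusted p = 0.00114). It was -1.56 without those 2 sheep. The hormone-sensitive lipase LIPE (-1.40, SE 0.22), the retinol carrier RBP4 (-1.002) and the lipid droplet protein CIDEC (-0.95) were also lower in epicardial fat.

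Other fat cell genes did not pass. The master regulator PPARG was at 286, 286, 337 and 345 CPM in visceral and 197, 339, 311 and 295 CPM in epicardial fat, at -0.16 with a 95% interval of -0.501 to 0.19. Perilipin 1 (PLIN1), which coats the lipid droplet, was at 0.43 (0.11 to 0.75; adjusted p = 0.0636), and adipsin (CFD) at 0.17 (-0.18 to 0.53). Leptin (LEP), the satiety hormone, was at 491, 524, 311 and 306 CPM in visceral against 168, 321, 355 and 304 CPM in epicardial fat, with overlapping depots and -0.51 (SE 0.28, adjusted p = 0.245). Without the 2 most muscle-rich sheep it was 0.0919. Over the 8 epicardial libraries, r to the log2 heart sum differed between fat cell genes, from -0.926 for CIDEC to 0.377 for AGT. It was -0.829 for PPARG, -0.816 for FABP4, -0.91 for LIPE and -0.814 for LEP, but -0.35 for RBP4, 0.0773 for CFD, 0.217 for the peptide APLN and 0.246 for the enzyme NAMPT. These libraries share 1 depot by their labels, and they differ in depth as well. They include that of testosterone sheep 255, with HOXC6 at 94.6 CPM against at most 2.21 in the other epicardial libraries of that treatment. With muscle-following genes removed before scaling, 2 of 16 on the adipocyte list passed as higher and 7 as lower in epicardial fat, and without the 2 most muscle-rich sheep 2 and 6.

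**Figure D4:**
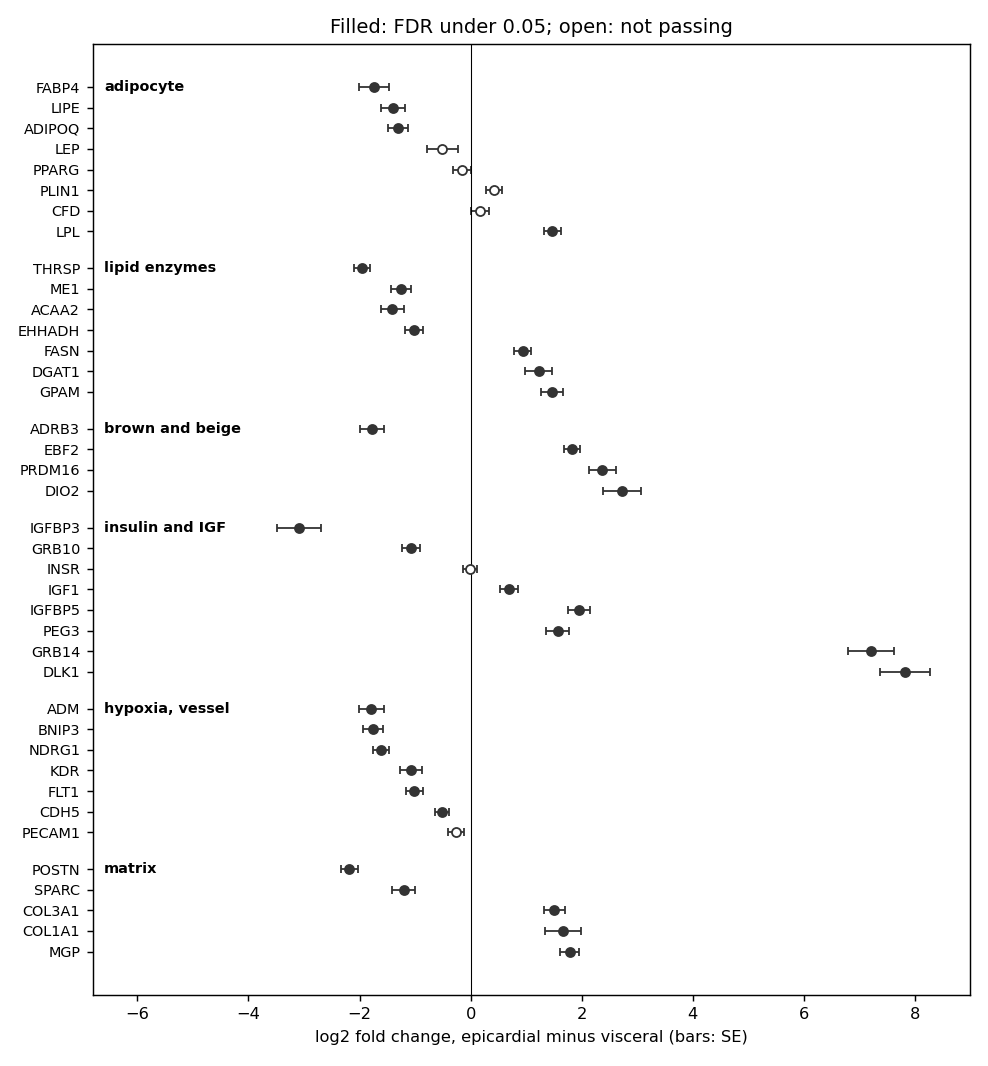
Log2 fold changes, epicardial minus visceral, with SE bars for 39 genes of fat cell, insulin, vessel and matrix function in 4 control sheep; filled points passed an adjusted p of 0.05. FABP4 and ADIPOQ lie below 0 while PPARG and CFD lie near it, and GRB14 and DLK1 lie far to the right.

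Lipoprotein lipase and angiotensinogen rose against this pattern. LPL, which frees fatty acids from blood lipids, was at 2741, 5565, 5183 and 3581 CPM in epicardial and 1093, 1603, 2113 and 1303 CPM in visceral fat. It was higher in epicardial fat in each of the 4 sheep, by 1.47 (SE 0.15, edgeR adjusted p = 0.000255). Angiotensinogen (AGT), the precursor of the vasoactive angiotensins, was at 20.9, 32.97, 43.2 and 17.8 CPM in epicardial against 1.78, 2.58, 7.83 and 1.36 CPM in visceral fat (3.23, SE 0.26, adjusted p = 9.46e-05), and subcutaneous and perirenal fat stood with visceral fat at 2.46 and 3.06 CPM.

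Enzymes of lipid synthesis divided between the depots, with 6 of 21 tested higher in epicardial and 4 higher in visceral fat and a median of 0.07. The shares over all genes were 9.68% and 10%. Higher in epicardial fat were GPAM, the first step of glycerolipid synthesis (408, 861, 317 and 306 CPM in epicardial against 130.1, 223, 194 and 105 CPM in visceral fat; 1.47, SE 0.20), and the triglyceride-forming enzyme DGAT1 (13.7, 12.8, 18.9 and 17.8 against 4.65, 5.97, 12.3 and 5.27; 1.23, SE 0.24). Fatty acid synthase, FASN, was at 72.6, 146, 146 and 73.3 CPM in epicardial against 55.1, 64.8, 68.7 and 34.9 CPM in visceral fat (0.94, SE 0.16), with adjusted p = 0.00324 by edgeR and 0.0505 without the sheep block. Higher in visceral fat were THRSP, a lipogenic factor under thyroid hormone and carbohydrate (44.4, 211, 147 and 61.2 CPM in visceral against 13.4, 63.6, 33.2 and 13.2 CPM in epicardial fat; -1.96, SE 0.15), and malic enzyme, ME1 (175, 188, 196 and 173 against 115, 58.2, 81.6 and 62.6; -1.26, SE 0.18). THRSP varied widely between sheep, was lower in epicardial fat within every sheep, and passed only with the block (adjusted p = 0.119 without it).

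For uptake and breakdown of lipid, 3 of 18 tested genes were higher in epicardial and 4 higher in visceral fat, beside 9.68% and 10% of all genes. The fatty acid binding protein FABP5 was at 4866, 6177, 6033 and 6032 CPM in visceral and 1536, 2148, 3071 and 3045 CPM in epicardial fat (-1.29, SE 0.17, edgeR adjusted p = 0.000912). The natriuretic peptide receptors, through which heart hormones act on fat, moved in opposite directions. The signalling receptor NPR1 was at 40.2, 61.7, 66.7 and 69.7 CPM in epicardial against 87.6, 109.8, 132 and 98.3 CPM in visceral fat (-0.85, SE 0.14). The clearance receptor NPR3 was at 68.05, 128, 58.7 and 48.2 CPM in epicardial against 21.3, 33.4, 9.26 and 8.51 CPM in visceral fat (2.17, SE 0.19). Neither overlapped between depots. The fatty acid transporters SLC27A3 (1.86) and SLC27A6 (1.68) were higher in epicardial fat.

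Genes of fatty acid oxidation gave 4 of 17 tested higher in visceral and 0 higher in epicardial fat, beside 10% and 9.68% of all genes. The 4 became 2 without the sheep block. ACADS was lost there (edgeR adjusted p = 0.114) and in other fits, such as without sheep 98 (0.0667), 131 (0.0815) or 201 (0.0943). The thiolase ACAA2 was at 1069, 1343, 1145 and 1903 CPM in visceral against 325, 531, 723 and 511 CPM in epicardial fat (-1.41, SE 0.21) and the peroxisomal enzyme EHHADH at 100, 159, 179 and 158 CPM in visceral against 36.97, 103, 102 and 67.8 CPM in epicardial fat (-1.02, SE 0.16), the latter with adjusted p = 0.0631 without the sheep block. Of 19 genes of oxidative phosphorylation 0 passed by edgeR or by DESeq2, with 3 at an unadjusted p under 0.05 by edgeR, and 17 of 19 log2 fold changes were above 0, with a median of 0.41. Over the 8 epicardial libraries r to the heart sum ran from 0.544 for NDUFA2 to 0.908 for NDUFA4 among the 19. With muscle-following genes removed 15 were left to test and 0 passed, with all 16 control libraries 1 passed as higher in epicardial fat, and without the 2 most muscle-rich sheep 2 passed as higher in visceral fat, NDUFA4 among them (-0.669, adjusted p = 0.0274). The summed level of the list was 2024 to 4819 CPM in epicardial and 1877 to 2899 CPM in visceral fat.

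Of the brown and beige fat list, 5 of 12 tested passed as higher in epicardial and 1 as higher in visceral fat, with a median of 0.71; without sheep 131 or without 132 the 5 became 3, and without 98 the 1 became 2. UCP1, the uncoupling protein that makes brown fat produce heat, was at 0.273, 0, 0.652 and 0 CPM in visceral and 0, 0.183, 0.172 and 0.209 CPM in epicardial fat and was too low to test. EBF2, a factor of brown and beige precursors, was at 355, 396, 503 and 443 CPM in epicardial and 108, 96.4, 168 and 112 CPM in visceral fat (1.83, SE 0.14, edgeR adjusted p = 7.75e-05). PRDM16, which drives the brown programme and is also expressed in heart and vessel, was at 24.2, 22.4, 25.7 and 21.1 CPM in epicardial against 2.6, 5.16, 6.78 and 3.91 CPM in visceral fat (2.37, SE 0.25). DIO2, which activates thyroid hormone, was at 16.7, 12.3, 4.31 and 15.9 CPM in epicardial against 1.91, 1.13, 1.56 and 2.21 CPM in visceral fat (2.73, SE 0.34). None of these 3 overlapped, and none was in the muscle-following class. PPARGC1A was in that class, at 83.1, 21.1, 12.1 and 10.02 CPM with sheep 98 far above the rest, and its call was lost without 131 (adjusted p = 0.139), 132 (0.151) or 201 (0.0687). The beta-3 adrenergic receptor ADRB3, which triggers lipolysis, was lower, at 14.7, 25.5, 14.8 and 29.2 against 58.8, 75.8, 83.3 and 63.8 CPM (-1.78, SE 0.22).

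Matrix genes passed in both directions. Of 25 collagens, elastic fibre and matrix genes tested, 5 were higher in epicardial and 4 higher in visceral fat; the 5 became 3 without sheep 132 and 9 without 98. The fibrillar collagens COL3A1 (1262, 1277, 1304 and 1075 CPM in epicardial against 651, 519, 342 and 299 CPM in visceral fat; 1.51, SE 0.19) and COL1A2 (250, 212, 229 and 225 against 144, 80.6, 64.95 and 55.8; 1.504, SE 0.20) did not overlap between depots. COL1A1 was at 1.66 (adjusted p = 0.0158, and 0.0611 without sheep 132). Matrix Gla protein (MGP), an inhibitor of calcification, was at 3700, 5250, 2903 and 2402 CPM in epicardial against 917, 1223, 888 and 962 CPM in visceral fat (1.79, SE 0.17, edgeR adjusted p = 0.00018). Periostin (POSTN), a matricellular protein, was lower in epicardial fat, at 37.95, 28.9, 33.2 and 39.7 against 177, 141, 113 and 220.3 CPM (-2.19, SE 0.15, adjusted p = 3.87e-05). SPARC, which binds collagen, was lower in epicardial fat as well, at 596, 809, 715 and 768 against 1824, 2410, 965 and 1729 CPM (-1.20, SE 0.21). Of 14 fibroblast and progenitor markers 1 passed in each direction. Higher and lower in epicardial fat were 4 and 1 without sheep 98, 2 and 1 without 131, 0 and 2 without 132, and 0 and 1 without 201.

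Vessel and hypoxia genes were lower in epicardial fat in part. Of 14 endothelial markers tested, 5 were higher in visceral and 1 higher in epicardial fat, and the 5 became 2 without sheep 131 or 201 and 3 without 132. The 1 higher in epicardial fat, the receptor TIE1 (0.80, adjusted p = 0.0336), was lost without any 1 of the 4 sheep (adjusted p of 0.0633 to 0.119) and by the DESeq2 Wald test (0.0686). The growth factor receptors KDR (125, 158, 125 and 117 CPM in visceral and 53.3, 48.2, 68.9 and 82.7 CPM in epicardial fat; -1.07, SE 0.19) and FLT1 (257, 324, 198 and 286 against 148, 143, 123 and 109; -1.01, SE 0.16) did not overlap. The pan-endothelial adhesion gene PECAM1 did not pass, at -0.26 with a 95% interval of -0.59 to 0.066. Summed endothelial markers were 996 to 1104 CPM in epicardial and 1350 to 1599 CPM in visceral fat.

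Of 17 hypoxia and glycolysis genes, 6 were higher in visceral and 2 higher in epicardial fat. The vasodilator peptide adrenomedullin (ADM) was at 2964, 1526, 910.3 and 2423 CPM in visceral against 576, 623, 388 and 508 CPM in epicardial fat (-1.78, SE 0.23, edgeR adjusted p = 0.000971). The mitophagy protein BNIP3 was at 327, 783, 364 and 892 CPM in visceral against 130.2, 193, 134 and 193 CPM in epicardial fat (-1.75, SE 0.18) and the stress-responsive NDRG1 at 305, 395, 372 and 351 CPM in visceral against 102, 159, 101 and 109.6 CPM in epicardial fat (-1.61, SE 0.15). All 3 were lower in epicardial fat in each sheep. The 2 that went the other way were EGLN3 (1.29) and PFKFB4 (1.54).

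Most nerve sheath genes tested were higher in epicardial fat, where 9.68% of all genes passed as higher. The summed Schwann cell list was not higher there, at 311 to 700 CPM in epicardial and 478 to 774 CPM in visceral fat, with overlap. S100B, described below, made up most of the visceral sum, at 430.4 to 714 CPM. The sum therefore does not describe the other markers. Of 10 Schwann cell markers tested, 8 passed as higher and 1 as lower (6 and 1 without sheep 131), and 4 of the 8, among them CDH19 and NGFR, were in the muscle-following class. Outside that class, the neuregulin receptor ERBB3 was at 25.5, 17.9, 8.44 and 24.2 CPM in epicardial against 5.06, 2.1, 1.56 and 2.38 CPM in visceral fat (2.77, SE 0.26, edgeR adjusted p = 0.000157) and the adhesion molecule NCAM1, which other cells also express, at 91.3, 49.5, 53.7 and 49.7 CPM in epicardial against 5.6, 8.06, 15.5 and 8.0 CPM in visceral fat (2.72, SE 0.34). NCAM1 and ERBB3 were highest in sheep 98, and ERBB3 was lowest in sheep 132, the same ends of the order as the heart muscle sum. With muscle-following genes removed before scaling, 4 of 6 passed as higher and 1 as lower, and without the 2 most muscle-rich sheep 7 and 1 of 10. S100B, which fat cells express as well, was lower in epicardial fat (189, 261, 154 and 114 against 430.4, 714, 666 and 659 CPM; -1.82, SE 0.23). The axonal neurofilament gene NEFL was at 45.1, 18.9, 3.27 and 8.77 CPM in epicardial fat and at most 0.161 CPM in visceral fat, and was muscle-following; of 2 neuron markers tested it was the 1 that passed.

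Leukocyte markers passed in numbers too small to set these lists apart by count, beside 9.68% and 10% of all genes. Of 10 T and NK cell markers 1 was higher in epicardial fat (0 without sheep 131 or 201, 2 of 9 without 98), 0 of 2 B cell markers passed by edgeR (1 at an unadjusted p under 0.05 and 1 by DESeq2), and 1 of 9 macrophage markers, the mannose receptor MRC1, was lower in epicardial fat (-0.95). Of 2 mast cell and neutrophil markers tested 1 passed, the receptor KIT, which was higher in epicardial fat (1.21, SE 0.27, edgeR adjusted p = 0.0144), and 0 passed without sheep 201. Summed macrophage markers were 412 to 777 CPM in epicardial and 803 to 1026 CPM in visceral fat, without overlap. Of the 9 tested, 0 had a log2 fold change above 0, with a median of -0.445. The complement gene C3 was higher in epicardial fat, at 245, 283, 226 and 246 against 136, 136, 123 and 110.2 CPM (0.99, SE 0.13, edgeR adjusted p = 0.000971), as was C7 (2.02). Of 14 smooth muscle and pericyte markers 2 were higher and 1 lower (4 and 0 without sheep 131, 2 and 0 without 201). Of 7 lymphatic markers 1 passed in each direction. The one higher in epicardial fat, the secreted glycoprotein RELN (3.02), was muscle-following, and the lower one, podoplanin (PDPN, -1.49), was lost without sheep 131 (adjusted p = 0.119) or 201 (0.0777). The only epithelial marker tested did not pass, and without sheep 132 the 1 tested passed.

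Mesothelium lines both the abdominal cavity and the pericardium, and MSLN and UPK3B, which mark it, were near 0 in both depots. MSLN was at 0, 0.161, 0 and 0 CPM in visceral and 0, 0, 0.172 and 0 CPM in epicardial fat, and UPK3B at 0.683, 2.26, 0 and 0.34 CPM in visceral against 0.982, 0.733, 0.861 and 0 CPM in epicardial fat. The 16 listed markers summed to 167 to 347 CPM in epicardial and 175 to 278 CPM in visceral fat. Of 7 mesothelial markers tested, 2 passed in each direction (1 in each without sheep 131, 2 higher and 1 lower without 201). Higher in epicardial fat were the keratin KRT8, at 22.6, 21.98, 1.38 and 8.14 against 0.41, 4.19, 1.3 and 0.51 CPM (2.94, SE 0.76, edgeR adjusted p = 0.0434, and 0.156 without sheep 201), and PKHD1L1, at 6.22, 4.21, 3.96 and 3.55 against 2.32, 1.61, 0.391 and 0.51 CPM (2.02, SE 0.42). ALDH1A2, a retinoic acid producing enzyme of epicardium and mesothelium, was lower in epicardial fat, at 19.96, 15.9, 23.2 and 22.8 against 43.3, 38.2, 45.8 and 43.9 CPM (-1.07, SE 0.15, edgeR adjusted p = 0.00122; 0.082 in the fit of all 16 control libraries). Its relatives ALDH1A1 (729.9, 761, 409.6 and 441 against 1910, 1708, 1057 and 1663 CPM; -1.46, SE 0.16) and ALDH1A3 (11.4, 9.53, 4.82 and 7.72 against 76.5, 33.9, 51.4 and 37.8; -2.55, SE 0.25) were lower as well, so the 3 retinal dehydrogenases shared a direction. On the retinoid list as a whole, 3 of 10 tested were higher in each depot, and the 3 higher in epicardial fat became 1 without sheep 98 or 201. The iron carrier transferrin (TF) was at 20.3, 47.1, 34.97 and 32.99 CPM in epicardial against 61.8, 128, 119 and 102 CPM in visceral fat (-1.61, SE 0.13).

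Of 10 steroid receptors and targets, 2 passed in each direction, and the 2 higher in epicardial fat became 1 without sheep 131, 132 or 201. The cortisol-regenerating enzyme HSD11B1 was at 79.1, 90.1, 148 and 201 CPM in visceral and 38.6, 30.4, 18.9 and 50.7 CPM in epicardial fat (-1.89, SE 0.30, edgeR adjusted p = 0.0059). The glucocorticoid target TSC22D3 was at 239.5, 571, 179 and 506 CPM in visceral against 103, 159, 104 and 139 CPM in epicardial fat (-1.43, SE 0.20). Immediate early genes, which respond to handling of tissue within minutes, were higher in epicardial fat in 6 of 15 tested and lower in 0. The 6 became 5 without sheep 131 or 201 and 7 without 98, and over all genes 9.68% passed as higher. JUNB was at 143, 331, 175 and 182 CPM in epicardial against 76.5, 105, 83.1 and 61.8 CPM in visceral fat (1.30, SE 0.16) and FOS at 88.3, 179, 121 and 103 CPM in epicardial against 22.96, 33.5, 32.7 and 6.29 CPM in visceral fat (2.48, SE 0.35), neither with overlap. The call of FOS was lost without the 2 most muscle-rich sheep (2.79, edgeR adjusted p = 0.13). That of NR4A1 was lost without sheep 98 (0.0738) or 201 (0.0556) and with no filter on low counts (0.0537). The Wnt and BMP list gave 3 of 18 in each direction (1 higher and 2 lower in epicardial fat without sheep 131, 5 and 2 of 19 without 132), and of 27 ribosomal protein genes 2 were lower in epicardial fat (0 without sheep 132 or 201, 1 without 98).

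**Figure D5:**
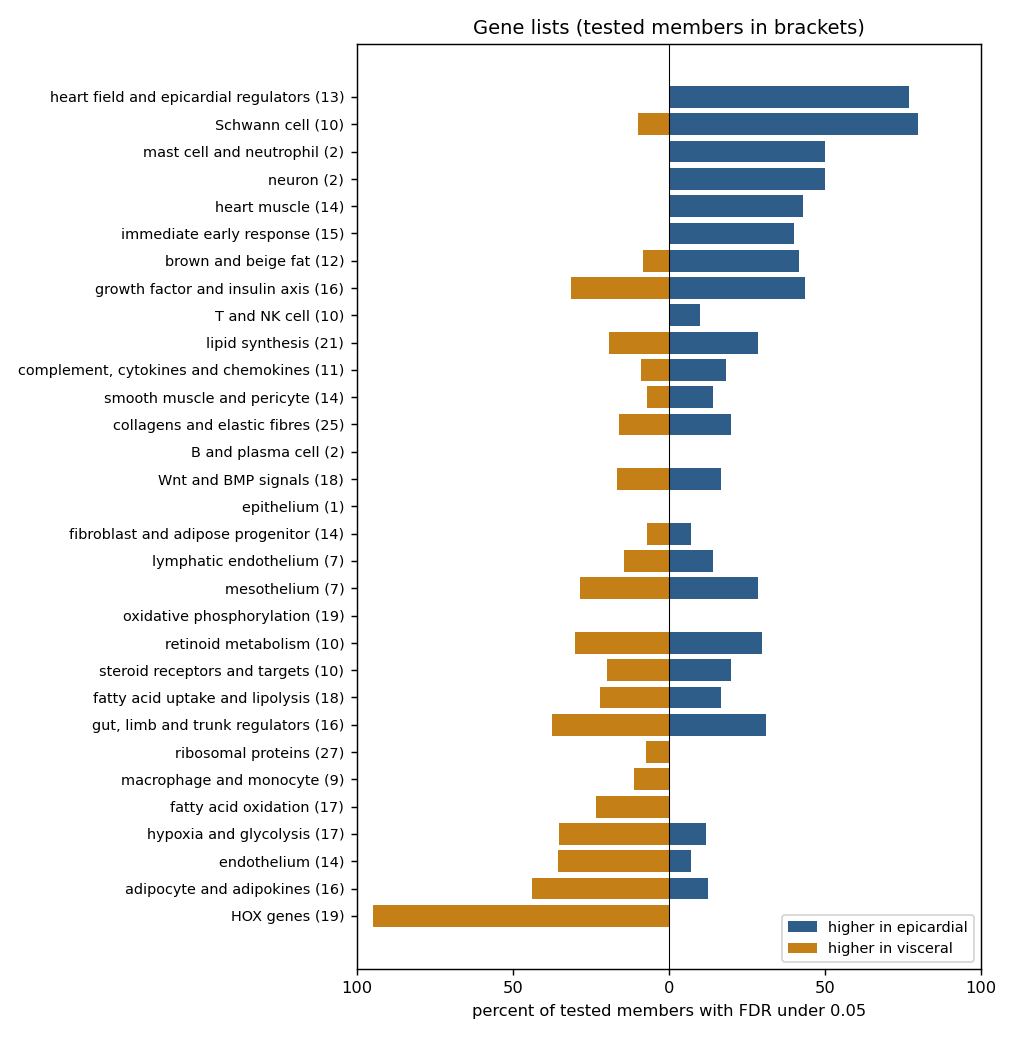
Percent of the tested members of each of 31 gene lists that passed an adjusted p of 0.05, to the right where epicardial fat was higher and to the left where visceral fat was higher, with the number tested in brackets. HOX genes stand at the visceral end with 18 of 19, and heart field regulators and Schwann cell markers at the epicardial end with 10 of 13 and 8 of 10; over all genes 9.68% and 10% passed.

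The same 2 depots were measured in the 4 sheep exposed to testosterone before birth, which entered the comparison above through the library scaling and, for their epicardial libraries, the rule for muscle-following genes. One of their epicardial libraries, that of sheep 255, stood apart: HOXC6 was at 94.6 CPM there against at most 2.21 in the other 3, HOXC8 at 35.2 against 0.402, and DMRT2 at 68.8 against 0.964. This library entered the rule for muscle-following genes and all r values to the heart sum above. With all 4 sheep 21 of 12660 genes passed (0.166%), and without sheep 255 it was 786 of 12751 (6.16%). Of 2402 genes that passed in controls outside the muscle-following class and were tested here, 2151 had the same direction and 16 of those passed. Without sheep 255 these numbers were 2294 of 2410, with 529 passing. The share of all genes with the same direction was not counted, so the agreement in direction cannot be judged against it. The log2 fold changes with all 4 sheep and without sheep 255 were -4.41 and -6.01 for HOXC6, 6.84 and 7.46 for DLK1, 5.21 and 5.07 for GRB14 and 2.03 and 2.08 for SOX9. They were -0.74 and -1.22 for ADIPOQ, 0.80 and 0.64 for LPL and 1.46 and 1.58 for EBF2, none with a count of 0 in a depot. For FASN the sign was negative in these sheep, at -0.28 and -0.41, beside 0.94 in controls, and the interaction did not pass (-1.21, adjusted p = 0.999). GATA4 again had no count in visceral fat and 11.5 to 35.5 CPM in epicardial fat. The difference between the treatments in this depot contrast passed in 0 of 13714 genes by edgeR (lowest adjusted p 0.411), with 586 (4.27%) at an unadjusted p under 0.05.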

How the data were processed

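RNA of integrity value 7 or more was made into 3′ mRNA libraries, per the labels' protocols. The authors deposited raw read counts per gene for 32 libraries, and the submitters' processing notes name Trimmomatic 0.36, STAR, featureCounts 1.6.1 and DESeq2 1.24.0. No source used here states the genome build or the strand setting of counting, so no coordinates are printed, and reads of overlapping or near-identical genes cannot be told apart. Of 10441 locus numbers among 28524 genes, 406 took a symbol from RefSeq by gene ID. Promoter, protein and other sequences were not used here.

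Library scaling (TMM) was computed once over all 32 libraries, with factors of 0.881 to 1.11. Genes were kept by filterByExpr (minimum count 10) and tested by edgeR 4.0.16 in R 4.3.3 with the robust quasi-likelihood test, the sheep as a block and Benjamini-Hochberg adjustment over all genes tested, with a threshold of 0.05. The SE is the log2 fold change divided by the root of the F statistic. Only the 8 libraries compared entered the fit. Its code was run on simulated counts with a common dispersion for all genes and no sheep effect, unlike these libraries. There it called 69% of 2-fold and 100% of 4-fold changes, with 5 false calls. This checks the code and not the calls reported here. The labels give the sheep of each library, so the pairing is by animal. Same-sheep correlations of deviations from the depot means were 0.14 to 0.404, over 0.1 in 4 of 4 sheep, against a mean of -0.0894 between different sheep. No 2 of 12 same-depot pairs were alike within counting noise (chi-square per degree of freedom of 10.7 or more).

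Genes named include, in each direction, the 12 with the largest passing change, no overlap between depots and a mean of at least 5 CPM. These lie outside the heart list and the muscle-following class, which does not exclude a weaker link to muscle RNA. Up to 4 passing members of each of 31 gene lists with the largest change are named as well. The 12 genes always shown are ADIPOQ, LEP, UCP1, HOXC6, TBX5, TCF21, WT1, DLK1, ALDH1A1, TF, AGT and GATA4. Added to these are the 6 highest heart muscle genes and, in each direction, the 5 most abundant genes that changed at least 2-fold. Other genes named, such as PPARG, INSR, IGF1, MEIS1, NPR1, ERBB3 and FASN, were chosen after their values were seen. Some genes that these rules pick are not reported here. The members and lists were chosen with earlier results of these data known. Lists are described by counts and medians, with no test of a list. Alternatives were DESeq2 size factors, no filter, the DESeq2 1.42.0 Wald test, no sheep block, all 16 control libraries in 1 fit, removal of muscle-following genes before scaling, and leaving out sheep.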

Additional observations from a re-analysis of the deposited data

Results flagged for a closer look

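Sets of 4 libraries were examined for 164 genes in each depot and for the heart muscle sum. In 33 of 329 sets, 1 library lay apart from the other 3 by more than Dixon's 95% limit. Independent normal values would do this in about 1 in 20 sets. Genes in the same libraries are not independent, and a gene with counts in 1 library only always exceeds the limit, so the count is not compared with that rate. Of the 33, 22 were epicardial and 11 visceral, and 12 concerned heart list or muscle-following genes. The epicardial library of sheep 98, which had the lowest total count and the most heart muscle RNA, gave 13. In that library the heart muscle sum was 40187 CPM (223 to 6676 in the other 3), TTN 9251, PLN 6033, ACTN2 1152, CASQ2 620, TCAP 479 and HRC 70.02 CPM. TBX5 was 55.9 (9.13 to 16.3), PPARGC1A 83.1, UNC13C 54.0 (14.8 to 19.8) and NCAM1 91.3 CPM (49.5 to 53.7). FABP4 was low there at 2797 CPM (9109 to 9704), as was HOXB2 at 1.96 CPM.

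In the other epicardial libraries, sheep 131 stood apart at 31.3 CPM for IGFBP3 (62.2 to 67.1 in the other 3), 159 CPM for NDRG1 and 122 CPM for NR4A1, and sheep 201 at 118 CPM for TBX18. Genes near 0 were set apart by a few counts: HOXB5 at 0.183 and OXTR at 0.366 CPM in sheep 131, HOXC9 and MSLN both at 0.172 CPM in sheep 132, and KRT23 at 1.04 CPM in sheep 201.

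In visceral fat, sheep 132 was high for DLK1 (4.04 CPM against at most 0.51), CAPN6 (1.04 CPM), KRT23 (19.4 CPM), EGLN3 (52.0 CPM against at most 26.6), NR3C2 (23.5 CPM) and TNNI3 (0.13 CPM). Sheep 98 was high for TTN (14.6 CPM against at most 3.06) and PER1 (44.1 CPM against at most 23.1), and low for FABP5 (4866 CPM against 6032 to 6177). Sheep 131 was high for NEFL and MSLN, both at 0.161 CPM.

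The ribosomal protein gene RPL23 went in opposite directions by treatment: it was lower in epicardial fat in 4 of 4 control sheep (log2 fold change -0.62) and higher in 4 of 4 testosterone sheep (1.11). The interaction did not pass (edgeR adjusted p = 0.656), and RPL23 has near-identical copies among which reads could be split.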

How the results depend on the processing

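The count of 2539 genes (2470 without muscle-following genes) was 2535 (2466) with DESeq2 size factors, 2943 (2757) with no filter, 2451 (2348) by the DESeq2 Wald test, 2912 (2783) with all 16 control libraries and 2687 with muscle-following genes removed before scaling. Without the sheep block, that is without the pairing, it was 1775 (1723), of which 1739 (1692) were among the genes called with the block. Leaving out 1 sheep gave 1360 to 2430 genes (1320 to 2343), lowest without 131; without 132 it was 1664 (1532) and without 201 it was 1635 (1584). Without both muscle-rich sheep, 98 and 131, it was 1998 (1927), with 1520 (1477) among those called with all 4 sheep. The scaling alternatives moved the median of all genes by -6.47e-06 and 0.0106 on the log2 scale. The interaction with treatment gave 0 genes in every fit but the one with no filter, which gave 1. The testosterone count of 21 became 786 without sheep 255, an alternative chosen after seeing the data. Of 154 named genes fitted, 140 passed and 103 of these passed under every alternative that tested them; most calls were lost without sheep 201 (23) or 131 (21), and 16 without the block. Only INSR, LEP, NDUFA2 and NDUFA4 changed sign. With 1 sheep left out INSR was -0.0343 to 0.0144, NDUFA2 -0.205 to 0.0448 and NDUFA4 -0.262 to 0.611. Without both muscle-rich sheep LEP was 0.0919, and NDUFA4 was -0.669 and passed (adjusted p = 0.0274). Beyond the genes named with their values above, calls were lost for KIT, INHBA, PER1 and TIE1, among others, and the cause was not tested. In epicardial fat a gene without counts could stand at up to about 0.16 CPM. The filter on low counts also left out genes well above that level, such as GRHL2, at a mean of 2.41 CPM in epicardial fat. Small changes are limited by the 4 sheep.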
